A study of Mus musculus with 9 samples.

Results

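The epidermal differentiation complex is a block of genes on mouse chromosome 3, and the genes described here encode the precursors of the cornified envelope. They were chosen by name: every gene whose symbol starts with Sprr or Lce, together with Flg, Flg2, Hrnr, Rptn, Tchh, Tchhl1, Crnn, Crct1, Ivl and loricrin (Lor). Of the 30142 genes measured, 43 met this rule: 13 Sprr genes, 13 Lce1 genes, 6 Lce3 genes, Lce6a, 7 fused S100 genes (Flg, Flg2, Hrnr, Rptn, Tchh, Tchhl1 and Crnn) and 3 others (Lor, Ivl and Crct1). Of 48 genes in the RefSeq mouse table that fit the rule, 5 (Lce1g, Sprr2a1, Sprr2a2, Sprr2a3 and Sprr2c-ps) had no probe set assigned to them alone and are not among the 43.

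Total RNA of whole neck skin from male C57BL/6 mice aged 6 to 8 weeks was hybridised to 9 Affymetrix arrays. Oxazolone skin (3 arrays) came from mice with allergic contact dermatitis to oxazolone, a synthetic hapten, and urushiol skin (3 arrays) from mice with the same disease raised by urushiol, the allergenic oil of poison ivy. In both, 2.0% allergen was applied to the shaved abdomen, and from 5 days later the shaved nape received 5 challenges of 0.5% allergen in 40 µl acetone, the last on day 8; skin was taken 4 hours after it. Control skin (3 arrays) is labelled healthy, and the labels do not say whether those mice were shaved or received acetone. The replicates are called biological in the labels.

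In the outer epidermis, keratinocytes replace their plasma membrane with an insoluble protein shell, the cornified envelope, which transglutaminases build by cross-linking precursor proteins. Loricrin is its main component, involucrin an early scaffold, the small proline-rich (Sprr) proteins act as cross-bridges, and the late cornified envelope (Lce) proteins are added last. The fused S100 proteins join a calcium-binding S100 part to long repeats. Filaggrin, the best known of them, aggregates keratin and is later broken down to the skin's moisturising factors, and trichohyalin hardens the inner root sheath of the hair follicle.

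Values are log2 expression, and ± is the standard error of a difference between groups of n = 3 arrays. "Rose" and "fell" are used for genes with a limma p under 0.05 after Benjamini-Hochberg adjustment over all 30142 genes, and other genes are described as not called. With 3 arrays a group, exact permutation p-values have a floor of 0.1, so single genes rest on the model fitted across all genes. For 11 of the 43 genes at least 1 array exceeded 16, the highest log2 value that a 16-bit scanner can record, so the differences are on a scale whose relation to RNA amounts is unknown. In whole skin, fewer cells of a type and less RNA per cell cannot be told apart. On all 9 arrays 34 of the 43 genes lay above the median of their array, and 1, Sprr3, lay below it on all 9.

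More of these genes rose than fell in challenged skin. In oxazolone skin 22 of the 43 genes rose and 3 fell relative to control skin, where 9.63% of all genes tested rose and 6.92% fell. In urushiol skin 25 rose and 3 fell, against 9.96% and 6.43% of all genes. The 3 genes that fell, Lor, Lce1m and Flg2, did so in both comparisons, which share their control arrays. Across the 43 genes the median difference was 2.41 for oxazolone and 2.87 for urushiol, while over all genes it was 0.06 and 0.04. The arrays of oxazolone skin lay wholly above those of control skin for 26 of the genes (21.3% of all genes) and wholly below for 4 (11.5%). For urushiol skin the counts were 29 above (21.1% of all genes) and 3 below (11.8%). A test of any difference among the 3 groups called 25 of the 43, against 14.1% of all genes. Along the chromosome the differences changed abruptly between neighbours: the Sprr2 genes and Lce3 genes carried the large rises, the first Lce1 genes lay near 0, and Lce1m stood far below 0 among genes that were higher.

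**Figure D1:**
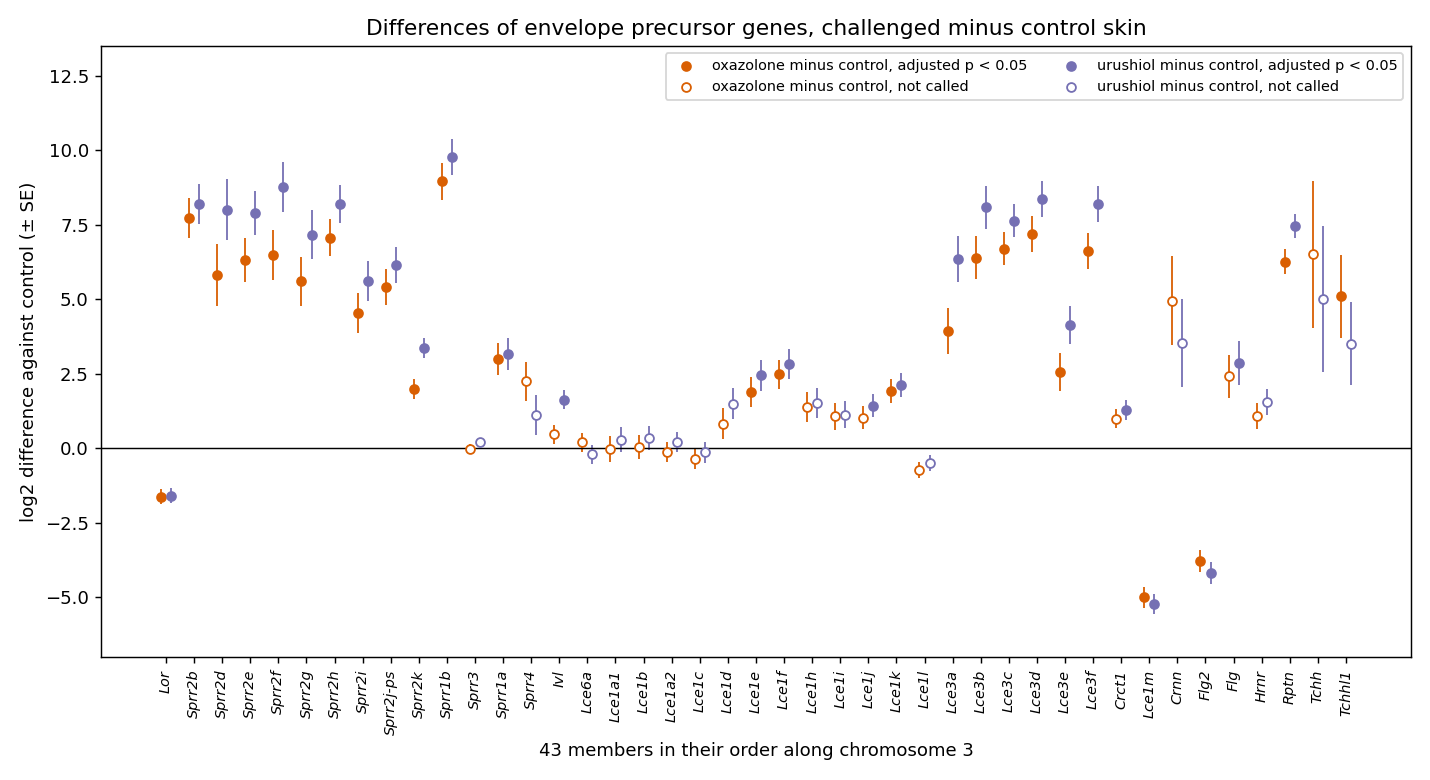
Log2 difference against control (vertical axis, ± standard error, 3 arrays a group) for the 43 genes in their order along chromosome 3, with oxazolone in orange and urushiol in purple. Filled points passed an adjusted p of 0.05. Sprr1b stands highest at 8.95 and 9.78, and Lce1m lowest at -4.99 and -5.22.

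Counts by subfamily were as follows. Of the 13 Sprr genes 11 rose in each comparison, with a median difference of 5.60 in oxazolone and 7.16 in urushiol skin. All 6 Lce3 genes rose in each, with medians of 6.51 and 7.86. Of the 13 Lce1 genes 3 rose and 1 fell in oxazolone skin (median 0.83), and 4 rose and 1 fell in urushiol skin (median 1.13). Of the 7 fused S100 genes 2 rose and 1 fell in each comparison, with medians of 4.96 and 3.51 and standard errors of up to 2.45. Averaged over its genes on each array, the Lce3 family lay between 10.85 and 14.59 in challenged skin and between 6.02 and 6.68 in control skin. The Lce1 family mean lay between 11.40 and 12.93 in challenged skin, which overlapped the control range of 11.07 to 12.03.

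**Figure D2:**
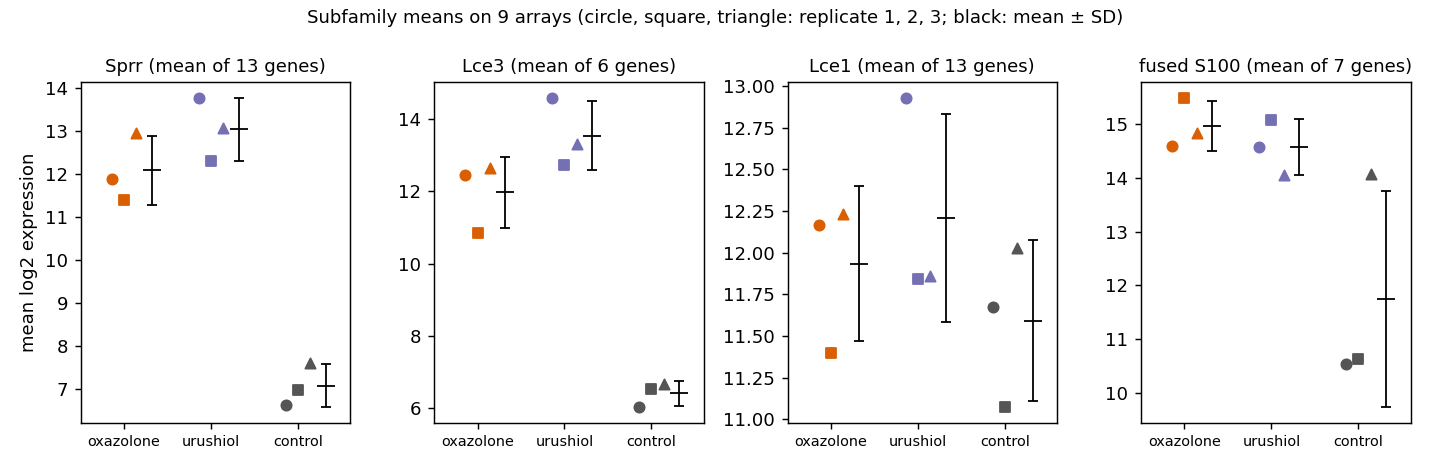
Mean log2 expression over the genes of each subfamily (vertical axis) on every array of oxazolone, urushiol and control skin, with symbols for replicate numbers and the group mean ± SD (n = 3) in black. The Sprr and Lce3 means separate challenged from control arrays, the Lce1 means overlap, and control array 3, at 14.07, lies with the challenged arrays for the fused S100 genes.

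Promoters are shown for 7 genes that stand for the patterns described below: Sprr1b, Lce3d and Rptn, which rose most in their subfamilies, Lce1m, Flg2 and Lor, which fell, and Flg, the partner of Flg2. Each run is the 250 bases before the RefSeq start of the gene, 5′ to 3′ on the gene's strand in assembly GRCm38.p6, and capitals mark the letters TGANTCA (the AP-1 motif) and TATAAA (the TATA box), searched on both strands. The window of Sprr1b is chr3:92438780-92439029 on the minus strand, that of Lce3d is chr3:92957140-92957389 on the plus strand, and that of Rptn is chr3:93393449-93393698 on the plus strand. The window of Lce1m is chr3:93019062-93019311 on the minus strand and that of Lor is chr3:92083143-92083392 on the minus strand. The window of Flg2 is chr3:93197023-93197272 on the plus strand and that of Flg is chr3:93273296-93273545 on the plus strand.
Sprr1b: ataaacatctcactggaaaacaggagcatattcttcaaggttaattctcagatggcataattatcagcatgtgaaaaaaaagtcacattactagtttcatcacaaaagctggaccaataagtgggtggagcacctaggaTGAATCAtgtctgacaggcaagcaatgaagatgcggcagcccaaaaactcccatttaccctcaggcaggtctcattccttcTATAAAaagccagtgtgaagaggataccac
Lce3d: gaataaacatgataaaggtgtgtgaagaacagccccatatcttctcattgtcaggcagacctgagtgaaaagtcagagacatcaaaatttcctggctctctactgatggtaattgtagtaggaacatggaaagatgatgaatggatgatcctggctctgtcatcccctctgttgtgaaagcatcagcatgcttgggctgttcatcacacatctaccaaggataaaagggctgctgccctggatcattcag
Rptn: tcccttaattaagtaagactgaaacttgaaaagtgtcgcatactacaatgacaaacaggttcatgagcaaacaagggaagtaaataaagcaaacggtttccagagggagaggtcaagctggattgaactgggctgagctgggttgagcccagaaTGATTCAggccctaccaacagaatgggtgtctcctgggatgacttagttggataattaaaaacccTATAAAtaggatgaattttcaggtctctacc
Lce1m: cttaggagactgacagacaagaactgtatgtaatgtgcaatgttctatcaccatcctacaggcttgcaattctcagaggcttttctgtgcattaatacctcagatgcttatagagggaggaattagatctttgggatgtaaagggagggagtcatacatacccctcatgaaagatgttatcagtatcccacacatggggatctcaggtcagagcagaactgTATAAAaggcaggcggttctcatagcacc
Flg2: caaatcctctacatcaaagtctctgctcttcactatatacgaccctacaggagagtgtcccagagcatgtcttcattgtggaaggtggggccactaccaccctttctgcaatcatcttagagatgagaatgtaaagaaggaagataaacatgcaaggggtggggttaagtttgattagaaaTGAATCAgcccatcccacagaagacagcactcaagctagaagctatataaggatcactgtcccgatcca
Flg: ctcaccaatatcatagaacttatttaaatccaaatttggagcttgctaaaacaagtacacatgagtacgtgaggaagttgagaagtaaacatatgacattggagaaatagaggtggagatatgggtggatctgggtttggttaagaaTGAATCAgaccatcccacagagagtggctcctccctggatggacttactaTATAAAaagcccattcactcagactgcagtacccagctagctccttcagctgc
Lor: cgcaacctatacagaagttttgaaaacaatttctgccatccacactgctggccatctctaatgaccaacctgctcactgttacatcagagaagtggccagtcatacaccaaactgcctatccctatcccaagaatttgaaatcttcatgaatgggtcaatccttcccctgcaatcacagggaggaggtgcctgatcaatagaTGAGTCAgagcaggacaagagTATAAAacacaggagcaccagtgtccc

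AP-1 is the dimer of Jun and Fos proteins through which many keratinocyte genes are switched on, and the TATA box positions the start of transcription. RefSeq promoters were at hand for 39 of the 43 genes, without Lce1f, Crct1, Sprr2g and Sprr2j-ps. The AP-1 letters were present in 9 of 11 Sprr promoters, 5 of 7 fused S100 promoters and those of Lor and Ivl, but in 0 of 12 Lce1, 0 of 6 Lce3 and the Lce6a promoters. They were present in 6.75% of 32851 mouse promoters of the same length. The TATA letters were present in 10 of 11 Sprr, 4 of 7 fused S100, 2 of 12 Lce1 and 1 of 6 Lce3 promoters, against 12.37% of all. Counted from the start, the AP-1 letters began at -111 in Sprr1b, -96 in Rptn, -103 in Flg, -69 in Flg2 and -48 in Lor. The Lce3d window held neither set of letters and the Lce1m window TATAAA alone, at -29. The AP-1 letters were present in genes that rose, such as Sprr1b and Rptn, and in genes that fell, Flg2 and Lor. They were absent from the Lce3 windows, whose genes all rose. All 9 Sprr promoters with the letters belonged to genes that rose in both comparisons. Sprr3 and Sprr4, the Sprr genes not called, had promoters without them. Outside the Sprr genes the letters were also present in Crnn, which was called in neither comparison. They were present too in Tchhl1, called in oxazolone skin alone, and in Flg and Ivl, called in urushiol skin alone. Whether the letters had a part in the differences was not tested. Of 5 other motifs searched on both strands, the antioxidant response letters TGACNNNGC, which can overlap TGANTCA, were present in 3 of 6 Lce3 promoters and 10.16% of all. The other searches covered STAT (TTCNNNGAA), C/EBP (TTGCNNAA), GRHL (AACCNGTT) and KLF (CCACACCC) letters, which were present in 1, 5, 1 and 1 of the 39 promoters, against 7.02%, 9.56%, 1.79% and 3.20% of all. A match of letters is a description of the sequence and not a site of binding.

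Most Sprr genes rose in challenged skin. Sprr1b, a cross-bridging protein of stressed epidermis, read 16.31, 15.42 and 16.76 in oxazolone skin and 17.07, 16.90 and 17.01 in urushiol skin, against 6.13, 6.96 and 8.54 in control skin. All 6 challenged arrays lay far above the 3 controls. The difference was 8.95 ± 0.61 for oxazolone (adjusted p = 0.000569) and 9.78 ± 0.61 for urushiol (adjusted p = 0.000443). Its paralog Sprr1a read 16.85, 16.91 and 17.37 in oxazolone skin and 17.37, 17.02 and 17.19 in urushiol skin, against 13.47, 13.23 and 15.40 in control skin. It rose by 3.01 ± 0.53 (adjusted p = 0.0131) and 3.16 ± 0.53 (adjusted p = 0.0107), with no overlap of the challenged and control arrays.

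The Sprr2 genes form a tandem array of close copies. Sprr2b read 17.68, 17.16 and 18.26 in oxazolone skin and 18.51, 17.54 and 18.44 in urushiol skin, against 8.54, 10.20 and 11.16 in control skin, and rose by 7.73 ± 0.66 (adjusted p = 0.00121) and 8.20 ± 0.66 (adjusted p = 0.000925). Sprr2h read 14.65, 13.46 and 15.47 in oxazolone and 16.29, 14.97 and 15.70 in urushiol skin, against 6.81, 7.21 and 8.36 in control skin, a rise of 7.07 ± 0.63 (adjusted p = 0.00132) and 8.19 ± 0.63 (adjusted p = 0.000781). Neither gene's challenged arrays came within 5 log2 units of a control array of the same gene, a gap wider than the spread within any group. Sprr2f read 10.49, 10.02 and 12.31 in oxazolone and 14.48, 11.61 and 13.59 in urushiol skin, against 4.13, 4.79 and 4.45 in control skin, a rise of 6.48 ± 0.83 (adjusted p = 0.00441) and 8.77 ± 0.83 (adjusted p = 0.0015). Sprr2e read 12.72, 11.70 and 13.95 in oxazolone and 15.33, 13.09 and 14.65 in urushiol skin, against 5.90, 6.42 and 7.10 in control skin (6.32 ± 0.74, adjusted p = 0.00325, and 7.88 ± 0.74, adjusted p = 0.00144). Sprr2d spread widely among oxazolone arrays, at 11.54, 8.95 and 13.05, read 14.49, 12.21 and 13.41 in urushiol skin and 5.22, 5.17 and 5.69 in control skin, and rose by 5.82 ± 1.03 (adjusted p = 0.013) and 8.01 ± 1.03 (adjusted p = 0.00431). In all 3 genes the control arrays lay together near the low end of the scale and the challenged arrays lay above them. The other Sprr2 genes, Sprr2g, Sprr2i, Sprr2k and the pseudogene Sprr2j-ps, also rose, by 1.98 to 5.60 in oxazolone and 3.38 to 7.16 in urushiol skin. Whether probes for these near-identical copies, or for those of Lce1, tell their transcripts apart was not tested, so values of single copies are uncertain.

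Only Sprr3 and Sprr4 of the Sprr genes were not called. Sprr3, a protein of the squamous lining of mouth and oesophagus, lay between 4.53 and 5.14 on all 9 arrays, with differences of -0.01 ± 0.14 (adjusted p = 0.987) and 0.21 ± 0.14 (adjusted p = 0.361). Sprr4 differed by 2.25 ± 0.66 in oxazolone (adjusted p = 0.0591) and 1.12 ± 0.66 in urushiol skin (adjusted p = 0.3). Left out 1 at a time, arrays changed 2 Sprr calls. Sprr4 passed in oxazolone skin without control array 3 (2.76, adjusted p = 0.0248) or oxazolone array 1 (2.88, adjusted p = 0.0375), and over all alternatives its adjusted p ran from 0.0225 to 1.0. Sprr1a in oxazolone skin missed the threshold without control array 1 (adjusted p = 0.0501), with a range over alternatives of 7.57e-05 to 0.166. Each range over alternatives given here and below includes a test against a log2 fold of 1, which asks a stricter question than the call. That test gave the upper end of the range for Lce3a, Lce1f and Lce1k in oxazolone skin. For the other ranges the alternative behind the upper end is not given here, and it can be that test as well.

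The Lce3 genes rose as a whole family. Their human counterparts are known to be induced when the skin barrier is injured and in psoriatic plaques. Lce3d read 15.05, 13.69 and 15.33 in oxazolone skin and 16.65, 15.13 and 15.82 in urushiol skin, against 6.68, 7.75 and 8.07 in control skin. It rose by 7.19 ± 0.59 (adjusted p = 0.00109) and 8.37 ± 0.59 (adjusted p = 0.000675), and every challenged array lay above every control. Lce3c read 15.62, 14.44 and 15.69 in oxazolone and 16.96, 15.60 and 16.01 in urushiol skin, against 7.72, 8.62 and 9.33 in control skin, a rise of 6.69 ± 0.55 (adjusted p = 0.00109) and 7.63 ± 0.55 (adjusted p = 0.000675). Lce3f read 13.03, 11.55 and 13.52 in oxazolone and 15.21, 13.58 and 14.00 in urushiol skin, against 5.65, 6.11 and 6.47 in control skin, a rise of 6.62 ± 0.60 (adjusted p = 0.00143) and 8.19 ± 0.60 (adjusted p = 0.000684). Lce3b read 13.51, 11.50 and 13.51 in oxazolone and 15.85, 13.45 and 14.26 in urushiol skin, against 6.29, 6.29 and 6.73 in control skin, a rise of 6.40 ± 0.74 (adjusted p = 0.00303) and 8.08 ± 0.74 (adjusted p = 0.00133). In each of these genes oxazolone array 2 was the lowest and urushiol array 1 the highest of the 6 challenged arrays.

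Lce3a and Lce3e rose as well. Lce3a read 9.51, 7.62 and 9.70 in oxazolone and 12.85, 10.20 and 11.04 in urushiol skin, against 5.04, 4.78 and 5.21 in control skin, a rise of 3.93 ± 0.77 (adjusted p = 0.0181) and 6.35 ± 0.77 (adjusted p = 0.00357). Lce3e read 8.02, 6.30 and 8.04 in oxazolone and 10.01, 8.43 and 8.66 in urushiol skin, against 4.73, 5.69 and 4.26 in control skin, a rise of 2.56 ± 0.65 (adjusted p = 0.0386) and 4.14 ± 0.65 (adjusted p = 0.00831). The groups did not overlap in either gene. In oxazolone skin the call of Lce3a was lost without oxazolone array 1 or 3 or control array 1 or 2, at adjusted p of up to 0.0651 (range over alternatives 0.00781 to 0.165). That of Lce3e was lost in 7 of the 9 fits that left out 1 array, at up to 0.113 without oxazolone array 1, and with the replicate number as a block (adjusted p = 0.0595, range over alternatives 0.0184 to 0.64). Both calls in urushiol skin held without any 1 array.

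**Figure D3:**
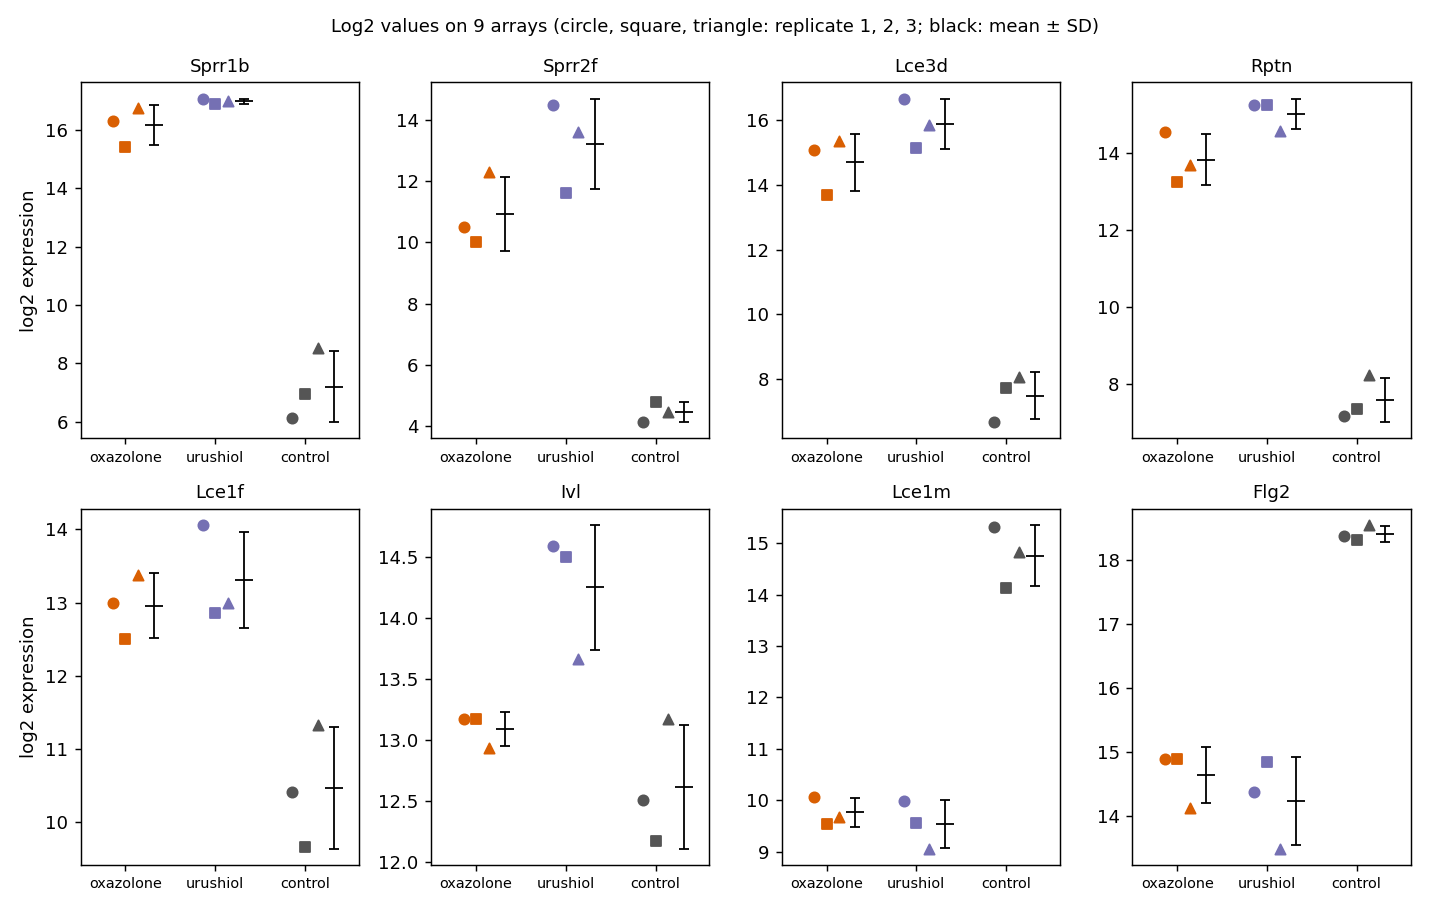
Log2 expression (vertical axes, each with its own range) on the 9 arrays for Sprr1b, Sprr2f, Lce3d, Rptn, Lce1f, Ivl, Lce1m and Flg2 in oxazolone, urushiol and control skin, with symbols for replicate numbers and the group mean ± SD (n = 3) in black. The first 4 genes and Lce1f lie above all controls on every challenged array, Lce1m (9.06 to 10.07) and Flg2 (13.49 to 14.89) lie below, and Ivl lies above the controls on the 3 urushiol arrays.

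The Lce1 genes, which encode some of the envelope proteins of cornified skin, split within the family. Lce1f read 13.00, 12.50 and 13.38 in oxazolone and 14.06, 12.86 and 13.00 in urushiol skin, against 10.42, 9.67 and 11.33 in control skin, a rise of 2.49 ± 0.50 (adjusted p = 0.019) and 2.83 ± 0.50 (adjusted p = 0.0121). Lce1k read 12.11, 11.31 and 11.87 in oxazolone and 12.76, 11.44 and 11.73 in urushiol skin, against 9.80, 9.38 and 10.36 in control skin, a rise of 1.92 ± 0.41 (adjusted p = 0.0233) and 2.13 ± 0.41 (adjusted p = 0.0162). Lce1e read 11.52, 10.56 and 11.54 in oxazolone and 12.77, 11.30 and 11.23 in urushiol skin, against 9.21, 8.76 and 9.97 in control skin, a rise of 1.89 ± 0.52 (adjusted p = 0.0486) and 2.45 ± 0.52 (adjusted p = 0.0224). The challenged arrays of all 3 genes lay above their controls. Lce1j read 11.18, 10.65 and 11.24 in oxazolone and 12.30, 10.86 and 11.11 in urushiol skin, against 10.19, 9.62 and 10.16 in control skin, and differed by 1.03 ± 0.39 (adjusted p = 0.108) and 1.43 ± 0.39 (adjusted p = 0.0465). Its arrays did not overlap in either comparison, and the call was made in urushiol skin alone. Lce1d read 11.84, 11.06 and 11.80 in oxazolone and 13.16, 11.68 and 11.86 in urushiol skin, against 10.84, 9.93 and 11.44 in control skin, and was not called (0.83 ± 0.52, adjusted p = 0.301, and 1.5 ± 0.52, adjusted p = 0.0929). With the replicate number as a block it passed in urushiol skin (adjusted p = 0.0493, range over alternatives 0.0491 to 1.0).

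Several Lce1 calls depended on single arrays. In oxazolone skin, Lce1f and Lce1k each lost their call without oxazolone array 1 or 3 or control array 1 or 2, at adjusted p of up to 0.0653 for Lce1f (range over alternatives 0.00548 to 0.353) and 0.079 for Lce1k (range 0.00929 to 0.754). Lce1e lost it in 7 of the 9 fits, at up to 0.151 without control array 2 (range 0.0202 to 1.0). In urushiol skin, Lce1f kept its call without any 1 array. Lce1e missed the threshold there without urushiol array 1 or control array 1 or 2, at up to 0.0785 (range 0.00811 to 0.476), and Lce1k without control array 1 or 2, at up to 0.0585 (range 0.00507 to 0.49). Lce1j lost its call in 8 of the 9 fits, at up to 0.149 without control array 2 (range 0.0228 to 1.0), and in oxazolone skin gained it without urushiol array 1 (adjusted p = 0.0339).

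Lce1m was the exception in the family. It read 10.07, 9.54 and 9.68 in oxazolone skin and 9.99, 9.56 and 9.06 in urushiol skin, against 15.32, 14.13 and 14.82 in control skin. All challenged arrays lay more than 4 log2 units below the lowest control. It fell by 4.99 ± 0.35 in oxazolone skin (adjusted p = 0.00062) and by 5.22 ± 0.35 in urushiol skin (adjusted p = 0.000521), and both calls held without any 1 array. The members at the start of the cluster, Lce1a1, Lce1b, Lce1a2 and Lce1c, were not called and lay between -0.35 and 0.03 in oxazolone and between -0.13 and 0.34 in urushiol skin, with standard errors of 0.33 to 0.43. Lce1h, Lce1i and Lce1l were not called either: Lce1h and Lce1i differed by 1.07 to 1.53, and Lce1l by -0.72 ± 0.27 (adjusted p = 0.109) and -0.48 ± 0.27 (adjusted p = 0.28). Lce6a read 6.84, 7.22 and 7.41 in oxazolone and 7.30, 6.57 and 6.41 in urushiol skin, against 6.98, 6.45 and 7.43 in control skin, and its groups overlapped (0.20 ± 0.32, adjusted p = 0.695, and -0.19 ± 0.32, adjusted p = 0.742).

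Loricrin, involucrin and Crct1 did not move together. Lor read 11.16, 10.62 and 10.96 in oxazolone skin and 11.10, 11.26 and 10.49 in urushiol skin, against 12.37, 12.39 and 12.83 in control skin. Every challenged array lay below every control, and Lor fell by 1.62 ± 0.24 in oxazolone (adjusted p = 0.00733) and by 1.58 ± 0.24 in urushiol skin (adjusted p = 0.00762). Ivl read 13.17, 13.17 and 12.93 in oxazolone skin and 14.59, 14.50 and 13.66 in urushiol skin, against 12.51, 12.17 and 13.17 in control skin. The oxazolone arrays overlapped the controls (0.47 ± 0.32, adjusted p = 0.338), while the urushiol arrays lay above them and Ivl rose by 1.63 ± 0.32 (adjusted p = 0.017). Crct1, a small cysteine-rich protein, read 14.45, 14.50 and 15.16 in oxazolone and 15.66, 14.71 and 14.61 in urushiol skin, against 13.64, 13.41 and 14.05 in control skin, and its challenged arrays lay above the controls. It was not called in oxazolone skin (1.0 ± 0.33, adjusted p = 0.0821) and rose in urushiol skin (1.29 ± 0.33, adjusted p = 0.0417). The loricrin calls held without any 1 array. The urushiol call of Ivl was lost without urushiol array 1 or 2 or control array 1 or 2, at up to 0.0635 (range over alternatives 0.00498 to 1.0). That of Crct1 was lost in 8 of the 9 fits, at up to 0.134 without control array 2, and with the block (adjusted p = 0.0601, range 0.0204 to 1.0). It was also lost under quantile renormalisation and when only the 2 compared groups were fitted. In oxazolone skin Crct1 passed without urushiol array 1 (adjusted p = 0.0439).

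Among the fused S100 genes of the epidermis, repetin and filaggrin 2 moved in opposite directions. Rptn, an envelope protein rich in glutamine repeats, read 14.55, 13.26 and 13.71 in oxazolone skin and 15.27, 15.25 and 14.57 in urushiol skin, against 7.15, 7.34 and 8.23 in control skin. The challenged arrays lay more than 5 log2 units above the controls, and Rptn rose by 6.27 ± 0.41 (adjusted p = 0.000542) and 7.46 ± 0.41 (adjusted p = 0.000324). Flg2, a filaggrin-like protein of the cornified layer, read 14.89, 14.89 and 14.13 in oxazolone skin and 14.37, 14.84 and 13.49 in urushiol skin, against 18.38, 18.31 and 18.55 in control skin. It fell by 3.78 ± 0.36 (adjusted p = 0.0016) and by 4.18 ± 0.36 (adjusted p = 0.00109), with no overlap of the groups.

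Flg itself read 18.04, 17.39 and 18.08 in oxazolone skin and 18.05, 18.98 and 17.85 in urushiol skin, against 14.19, 14.95 and 17.13 in control skin. All challenged arrays lay above the controls, although control array 3 came close to them. The difference of 2.41 ± 0.73 was not called for oxazolone (adjusted p = 0.063), and Flg rose by 2.87 ± 0.73 in urushiol skin (adjusted p = 0.0391). That call was lost with the block (adjusted p = 0.0592) and in 8 of the 9 fits without 1 array, at up to 0.126 without control array 2, the exception being control array 3. It was also lost under quantile renormalisation and when only the 2 compared groups were fitted. Hrnr, hornerin, another filaggrin-like protein, read 18.98, 18.00 and 18.35 in oxazolone and 18.97, 19.12 and 18.63 in urushiol skin, against 16.94, 16.82 and 18.33 in control skin. It was not called in either (1.08 ± 0.44, adjusted p = 0.129, and 1.54 ± 0.44, adjusted p = 0.053).

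The fused S100 genes of the hair follicle, trichohyalin above all, were split within the control group. Tchh read 14.42, 17.17 and 15.68 in oxazolone skin and 13.71, 15.06 and 14.02 in urushiol skin, against 5.98, 6.20 and 15.57 in control skin. Control array 3 thus lay within the challenged range and the other controls far below it, and neither difference was called (6.51 ± 2.45, adjusted p = 0.11, and 5.01 ± 2.45, adjusted p = 0.211). Tchhl1, trichohyalin-like 1, read 10.74, 14.26 and 12.03 in oxazolone and 11.17, 11.39 and 9.72 in urushiol skin, against 5.62, 5.97 and 10.15 in control skin. It rose in oxazolone skin, whose arrays lay above the controls (5.10 ± 1.39, adjusted p = 0.0478), and was not called in urushiol skin, where control array 3 lay within the range (3.51 ± 1.39, adjusted p = 0.131). Crnn, cornulin, a squamous epithelial protein, read 10.50, 13.42 and 11.80 in oxazolone and 10.50, 10.93 and 10.03 in urushiol skin, against 5.56, 4.79 and 10.50 in control skin. The groups overlapped through control array 3, and Crnn was not called (4.96 ± 1.49, adjusted p = 0.0626, and 3.54 ± 1.49, adjusted p = 0.153).

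For 35 of the 43 genes, all 7 fused S100 genes among them, control array 3 was the highest of the controls. Over all genes this array was not counted in the same way. Its excess over the mean of the other controls had a median of 2.56 in the fused S100 genes and reached 9.48 in Tchh, against medians of 0.495 in Sprr, 0.515 in Lce3 and 0.76 in Lce1. The mean of 6 inner root sheath keratins read 13.05, 16.00 and 14.25 in oxazolone skin and 12.12, 13.06 and 13.20 in urushiol skin, against 6.20, 6.38 and 13.95 in control skin. The mean of 8 hair shaft markers read 9.56, 12.42 and 10.40 in oxazolone and 9.24, 9.79 and 8.69 in urushiol skin, against 6.16, 6.24 and 9.69 in control skin. None of these 14 markers was called in either comparison with limma; with an unadjusted p under 0.05, 13 were higher in oxazolone skin and 0 in urushiol skin, against 34.1% and 32.2% of all genes in either direction. Their levels moved with those of Tchh, Tchhl1 and Crnn across the arrays, and their part in these differences was not tested.

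Without control array 3 all 5 of these genes were called in both comparisons. Tchh then differed by 9.67 in oxazolone (adjusted p = 0.000514, range over alternatives 0.000514 to 0.915) and 8.17 in urushiol skin (0.000958, range 0.000958 to 1.0). Crnn differed by 6.73 (0.00212, range 0.00212 to 0.542) and 5.31 (0.00521, range 0.00521 to 1.0). Tchhl1 differed by 6.55 (0.00586, range 0.00586 to 0.4) and 4.97 (0.0163, range 0.0163 to 1.0). The more modest differences of Flg, 3.27 and 3.72, and of Hrnr, 1.56 and 2.03, passed as well, at adjusted p of 0.00261 and 0.00162 for Flg (ranges 0.00261 to 1.0 and 0.00162 to 0.612) and 0.0106 and 0.004 for Hrnr (ranges 0.0106 to 1.0 and 0.004 to 1.0). The oxazolone call of Tchhl1 was lost without any 1 of the other 8 arrays, at up to 0.149 without control array 2, and with the block (adjusted p = 0.072). Of the 43 genes 26 rose and 3 fell in oxazolone skin without control array 3, and 28 rose and 3 fell in urushiol skin. The share of all genes that rose was then 15.8% and 15.1%.

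**Figure D4:**
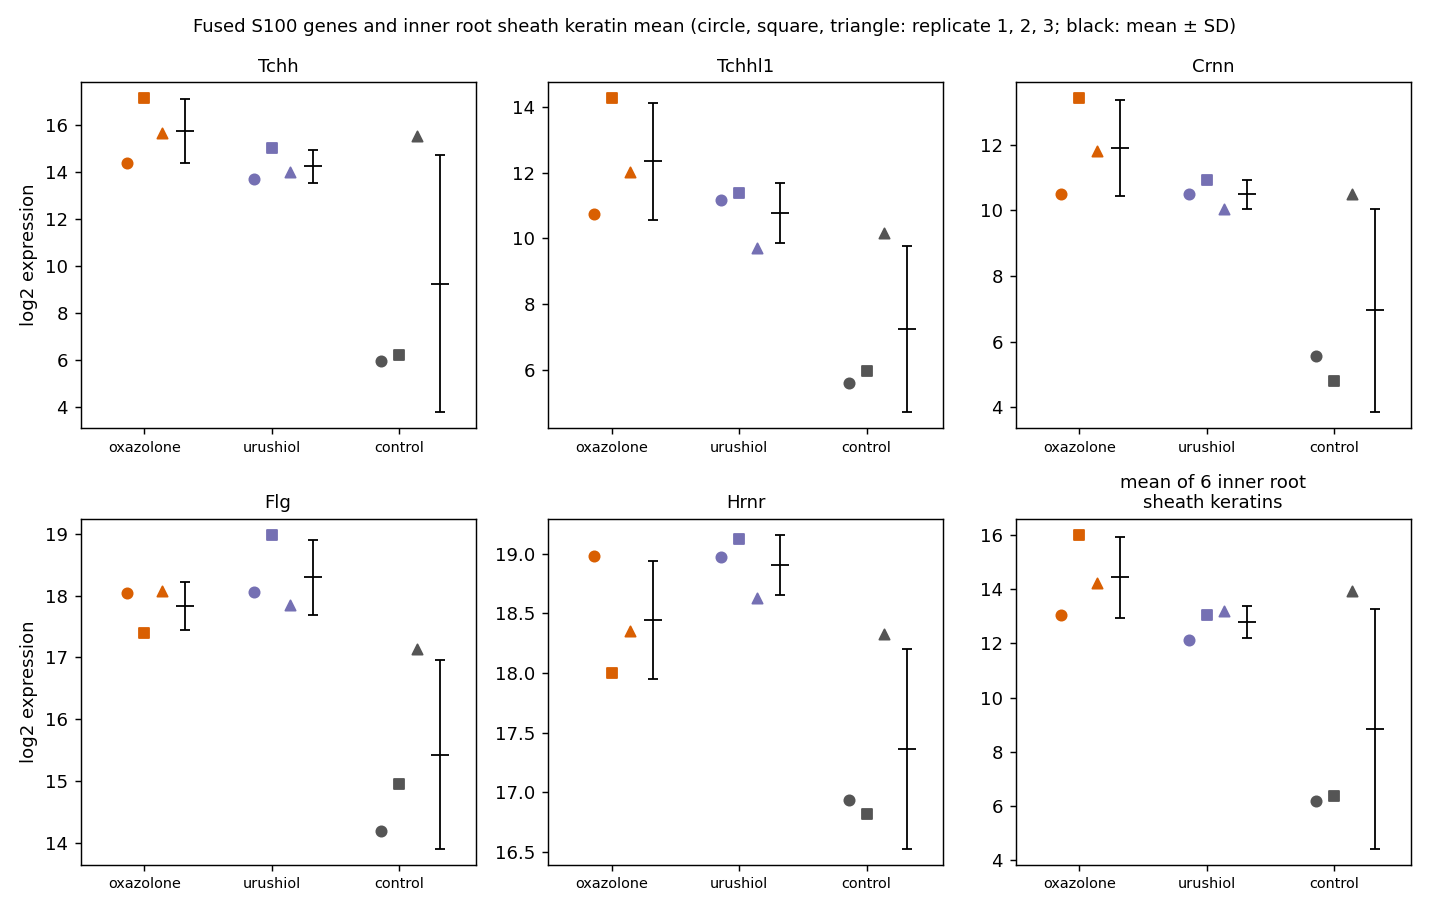
Log2 expression (vertical axes, each with its own range) of Tchh, Tchhl1, Crnn, Flg and Hrnr and the mean of 6 inner root sheath keratins on the 9 arrays of oxazolone, urushiol and control skin, with symbols for replicate numbers and the group mean ± SD (n = 3) in black. The triangle of control array 3 lies with the challenged arrays in Tchh (15.57) and in the keratin mean (13.95), apart from the other controls.

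None of the 43 genes was called between urushiol and oxazolone skin. With limma 0 of 43 genes were higher and 0 lower in urushiol than in oxazolone skin after adjustment, against 0.00664% and 0.00995% of all genes, and 7 (of all genes 5.88%) had an unadjusted p under 0.05. The difference was above 0 for 36 of the 43 genes (14552 of all 30142 genes), with a median of 0.46 (all genes -0.003). The arrays did not overlap for 7 genes, all higher in urushiol (5.35% of all genes, while 4.39% were lower). Sprr2k read 8.14, 7.39 and 6.96 in urushiol and 6.12, 5.61 and 6.58 in oxazolone skin, a difference of 1.39 ± 0.34 (95% confidence interval 0.59 to 2.19, unadjusted p = 0.00434, adjusted p = 0.403). Ivl, given above, differed by 1.16 ± 0.32 (interval 0.41 to 1.91, unadjusted p = 0.00791, adjusted p = 0.497), and its urushiol arrays lay above its oxazolone arrays. Rptn differed by 1.19 ± 0.41 (interval 0.21 to 2.17, unadjusted p = 0.0234, adjusted p = 0.715), again with no overlap. The largest differences were those of Lce3a, 2.42 ± 0.77 (interval 0.60 to 4.24, adjusted p = 0.636), Sprr2f, 2.29 ± 0.83 (0.33 to 4.25, adjusted p = 0.763), and Sprr2d, 2.19 ± 1.03 (-0.23 to 4.61, adjusted p = 0.912). Lce3e and Lce3f, at 1.58 and 1.56, completed the genes with an unadjusted p under 0.05.

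The intervals leave wide room in either direction for many genes. Those of Tchh ran from -7.27 to 4.28 and of Sprr1b from -0.60 to 2.26, while those of Lor (-0.53 to 0.60) and Lce1m (-1.05 to 0.59) were narrower. All 6 Lce3 genes, 12 of 13 Sprr genes and 12 of 13 Lce1 genes had a positive difference, and 3 of 7 fused S100 genes. Urushiol array 1 was the highest of the 6 challenged arrays for 33 of the 43 genes, with 6 of 6 Lce3, 12 of 13 Sprr and 12 of 13 Lce1 genes among them. Oxazolone array 2 was the lowest for 30, with 6 of 6 Lce3, 9 of 13 Sprr and 12 of 13 Lce1 genes, and the highest for 4 of 7 fused S100 genes. These counts of extreme arrays were not made over all genes. Without urushiol array 1 or without oxazolone array 2, all 6 Lce3 genes and 12 of 13 Sprr genes kept a positive difference, and no gene was called. The median difference was then 1.05 and 0.996 in Lce3 (1.57 with all arrays) and 0.79 and 0.57 in Sprr (1.09 with all arrays). Over the 43 genes it was 0.06 and 0.21, with 25 and 29 genes positive. Of the 13 Lce1 genes, 3 were positive without urushiol array 1 and 6 without oxazolone array 2.

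**Figure D5:**
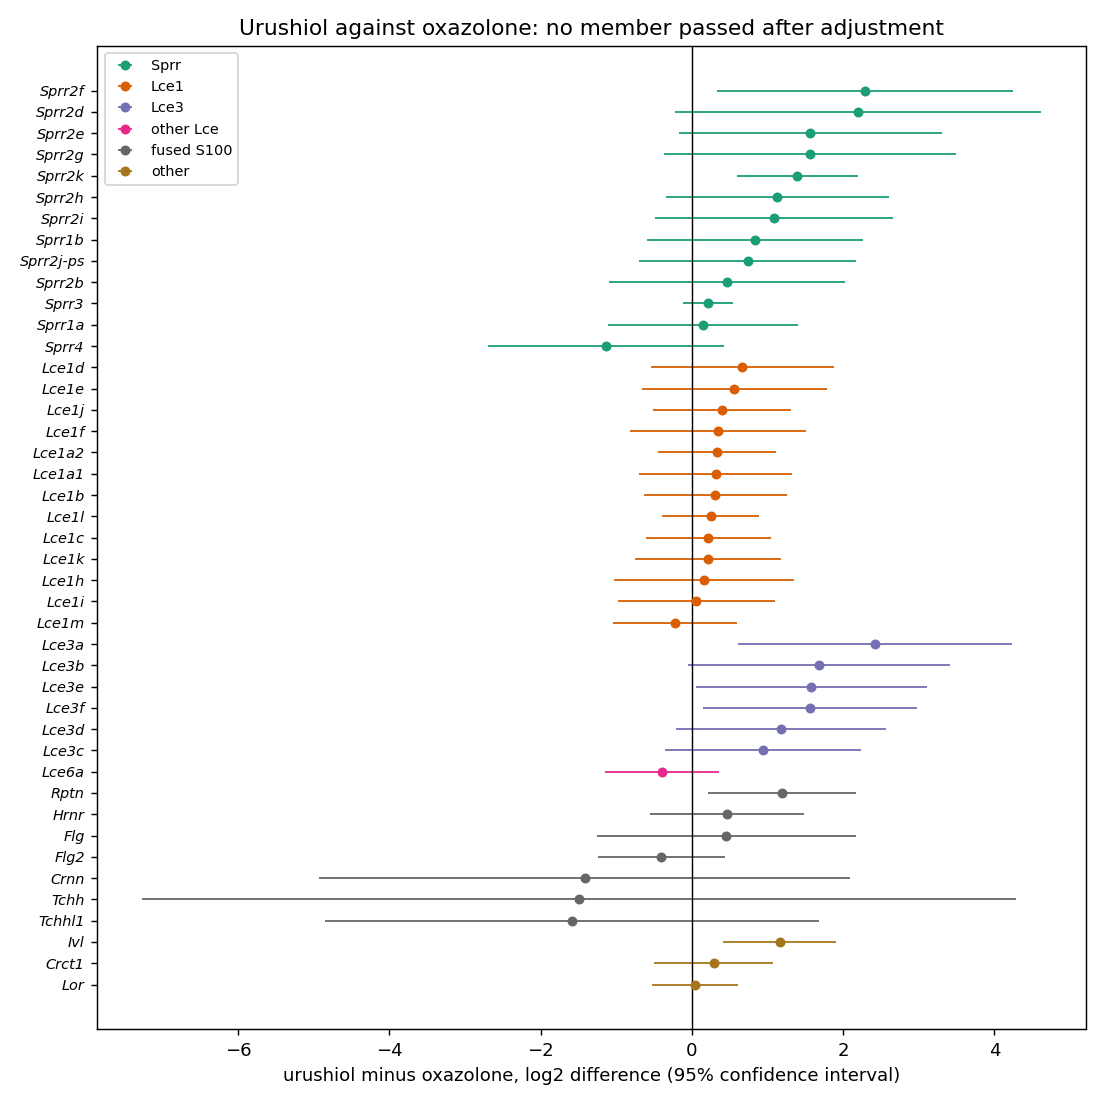
Urushiol minus oxazolone (horizontal axis, log2 difference with its 95% confidence interval, 3 arrays a group) for each of the 43 genes, grouped and coloured by subfamily. The intervals of Sprr2f, Sprr2k, Lce3a, Lce3e, Lce3f, Rptn and Ivl lie above 0, and after adjustment over all genes 0 of 43 passed.

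The envelope's partner genes, which cross-link, cleave or anchor these precursors, rose more often than they fell. Of 33 measured genes of a list of 35, 15 rose and 2 fell in oxazolone skin (9.63% and 6.92% of all genes), with a median difference of 1.46. In urushiol skin 20 rose and 1 fell (9.96% and 6.43% of all genes), with a median of 1.72. Tgm3, a transglutaminase that cross-links Sprr proteins, loricrin and trichohyalin, rose by 6.83 ± 0.63 (adjusted p = 0.00155) and 8.11 ± 0.63 (adjusted p = 0.000836). Casp14, the protease of filaggrin breakdown, rose by 3.24 ± 0.76 (adjusted p = 0.0308) and 4.61 ± 0.76 (adjusted p = 0.00974). Cnfn, cornifelin of the envelope, rose by 2.93 and 4.06 (adjusted p = 0.0102 and 0.00325), and Cers3, a ceramide synthase of the lipid envelope, by 2.23 and 3.42 (adjusted p = 0.00483 and 0.00111). The genes that fell were Scel, sciellin (-1.49 and -1.37, adjusted p = 0.00211 and 0.00263), and in oxazolone skin Ppl, periplakin (-1.02, adjusted p = 0.0378).

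Among transcriptional regulators of the complex, 27 were measured of a list of 31. In oxazolone skin 6 rose and 3 fell (median 0.15), against 9.63% and 6.92% of all genes, and in urushiol skin 7 rose and 4 fell (median 0.40), against 9.96% and 6.43%. Ehf, an epithelial Ets factor, rose by 4.73 ± 0.51 (adjusted p = 0.00244) and 5.36 ± 0.51 (adjusted p = 0.00148). Grhl3, a grainyhead factor of barrier formation, rose by 1.80 and 2.67 (adjusted p = 0.013 and 0.00334), and Ovol1 by 1.54 and 2.33 (adjusted p = 0.0221 and 0.00548). Pou2f3, a POU factor of suprabasal keratinocytes, fell (-2.13 and -1.18, adjusted p = 0.0036 and 0.0252). Of the 5 AP-1 subunits in the list, Jun, Jund and Fos were not called, with standard errors of 0.32 to 1.15. Fosl2 was not called either (0.94 and 0.87, adjusted p = 0.0794 and 0.101), and Fosl1 rose by 0.93 and 1.27 (adjusted p = 0.0214 and 0.00768); these 5 were singled out after their values were seen.

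Other genes of the chromosome 3 complex that fall outside the naming rule, chiefly S100 genes, were measured for 20 of 22. Of these 9 rose and 1 fell in oxazolone and 8 rose and 0 fell in urushiol skin with limma, against 9.63% higher and 6.92% lower of all genes in oxazolone and 9.96% and 6.43% in urushiol skin. An unadjusted p under 0.05 was reached in either direction by 14 and 11 of them and by 34.1% and 32.2% of all genes. S100a8, an antimicrobial protein of neutrophils and stressed keratinocytes, rose by 8.81 ± 0.78 (adjusted p = 0.00132) and 10.58 ± 0.78 (adjusted p = 0.000684), and its partner S100a9 by 8.23 and 9.98 (adjusted p = 0.000732 and 0.000423). S100a7a rose by 5.35 and 5.64 (adjusted p = 0.0149 and 0.0121) and Pglyrp3, a peptidoglycan recognition protein, by 4.40 and 3.94 (adjusted p = 0.00308 and 0.00436). The gene that fell was 2310050C09Rik (-1.77, adjusted p = 0.0258). With limma no gene of these 3 lists was called between urushiol and oxazolone skin, while 10 of 33 partners, 5 of 27 regulators and 1 of 20 neighbours had an unadjusted p under 0.05, against 5.88% of all genes.

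Markers of other cell types in whole skin were counted in the same way. Of all genes tested with limma, 9.63% rose and 6.92% fell in oxazolone skin, and 9.96% rose and 6.43% fell in urushiol skin. Of 7 basal keratinocyte markers 2 rose (Krt14 by 2.53 and 3.07, Itga6 by 1.0 and 1.34) and Krt15 fell (-4.17 and -4.70). Of 6 suprabasal markers, 2 rose and 1 fell in oxazolone skin and 3 rose and 1 fell in urushiol skin: Krt1 rose by 1.98 and 2.12, Dsc1 rose by 1.49 and 2.36, Krt77 fell (-8.11 and -10.35), and Krt10 was not called (-0.16 and -0.42). The mean of the suprabasal markers ran from 13.99 to 14.90 in oxazolone and 14.14 to 14.36 in urushiol skin, against 14.94 to 15.57 in control skin. Krt77 was the only one of the 6 that fell, and their median difference was 0.04 in oxazolone and 0.305 in urushiol skin. Krt2, counted among the 6, lay between 4.49 and 4.64 on all 9 arrays, below the median of every array. The mean of the basal markers ran from 12.98 to 13.59 and 13.41 to 13.63, against 13.24 to 13.75. Of 8 neutrophil markers 5 rose in each, led after S100a8 and S100a9 by Cxcr2 (2.51 and 2.83) and Csf3r (2.49 and 2.65), and their mean lay between 8.90 and 9.84 on challenged and between 5.82 and 6.17 on control arrays; Mpo and Elane lay at or below 4.65 on all 9. All 5 skeletal muscle markers fell in both comparisons, among them Atp2a1 (-10.22 and -5.62) and Tnnt3 (-9.54 and -5.05), with means of 7.50 to 9.90 in oxazolone and 11.98 to 13.15 in urushiol skin, against 16.54 to 18.43 in control skin. Of 5 adipocyte markers 4 fell in oxazolone and 3 in urushiol skin, with Cidec (-2.30 and -1.65) and Adipoq (-1.73 and -1.82) among both. Of 6 sebaceous gland markers 1, Scd3, fell in each (-3.88 and -4.43). With limma 0 of 4 melanocyte markers were called. An unadjusted limma p under 0.05 was reached by 3 of them in oxazolone and 0 in urushiol skin, against 34.1% and 32.2% of all genes in either direction. The part of these changes in the differences of the envelope precursors was not tested.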

How the data were processed

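Neck skin RNA was measured on 9 arrays, 3 a group, and the sample titles gave groups and replicate numbers. The authors deposited log2 expression values per transcript cluster. Per the submitters' processing notes, Affymetrix Expression Console 1.4, RMA and the Transcriptome Analysis Console were used, in roles those notes do not state. Their genome build was not given in the sources used here. Array controls were left out, and only clusters with 1 symbol in the platform annotation named a gene, updated through the RefSeq table of GRCm38. The cluster with the highest mean stood for a gene, which gave 30142 genes; each of the 43 had 1 cluster. The file holds no detection calls. Arrays carry no depth, and their number limits the precision.

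All 9 arrays were fitted together with limma 3.58.1 in R 4.3.3 (lmFit, eBayes, two-sided; Benjamini-Hochberg over all genes, threshold 0.05), and the script was tested on simulated data. The members and the 12 gene lists were chosen with earlier results of these data known. Values on every array are given for the fused S100 genes, Ivl, Lor and Crct1 and, in each Sprr or Lce group, the 4 genes that differed most from control and the 3 that differed most between allergens; other Sprr genes with array values were singled out after their values were seen, as were Sprr2k and the other AP-1 subunits. From each list up to 4 called genes with the largest difference were named. Mpo, Elane, Krt2, Krt10 and Fosl2 were named after their values were seen.

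The deviations from group means of oxazolone and urushiol arrays with the same number correlated at 0.124 to 0.201, above 0.1. With different numbers these arrays correlated at -0.180 to 0.021. The numbers may thus pair these arrays, though no label says so. With controls, same-number pairs ran from -0.232 to 0.337, below 0.1 in 4 of 6 pairs, and different-number pairs from -0.2905 to 0.2847. The main fit had no block, so its standard errors, intervals and p-values treat all arrays as unpaired. The 22 alternatives were quantile renormalisation, median centring, a filter on dim genes, other variance models, array weights, 2 groups alone, other cluster choices, stricter thresholds, the replicate block and leaving out each array. The block on the 6 challenged arrays alone was added after the data were seen.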

Additional observations from a re-analysis of the deposited data

Results flagged for a closer look

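Signal was present in 3 transcript clusters that carry several symbols of the Sprr2 and Lce1 families and so entered no comparison of the report. The cluster shared by Sprr2a2 and Sprr2a1 read 12.99, 12.40 and 13.27 in oxazolone skin and 13.86, 12.56 and 13.54 in urushiol skin, against 7.64, 7.89 and 8.48 in control skin, differences of 4.88 and 5.32 (log2). The cluster shared by Sprr2a3, Sprr2a2 and Sprr2a1 read 19.67, 19.40 and 19.78 in oxazolone and 19.93, 19.41 and 19.86 in urushiol skin, against 11.55, 13.52 and 14.38 in control skin, differences of 6.47 and 6.58. The value of 19.93 is the highest in the file, so the size of that urushiol difference is uncertain. The cluster shared by Lce1g and Lce1l read 10.92, 10.42 and 11.20 in oxazolone and 11.95, 10.47 and 10.50 in urushiol skin, against 8.52, 7.21 and 8.38 in control skin, differences of 2.81 and 2.94. The cluster of Lce1l alone lay at -0.72 and -0.48, in the opposite direction. In all 3 shared clusters every challenged array lay above every control, and none of them was tested.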

How the results depend on the processing

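Of 2749 values of single genes recomputed under the 22 alternatives, 2594 kept their side of the threshold, 124 lost a call and 31 gained one. Among differences called before or after, 0 changed sign. Differences called in neither fit were counted as kept whatever their sign. Without urushiol array 1, 10 of the 43 differences between the allergens changed sign, and without oxazolone array 2, 7 did. A threshold of 0.01 left 13 genes higher in oxazolone skin (2.23% of all genes). A test against a log2 fold of 1 (treat) left 13 in oxazolone and 16 in urushiol skin (0.660% and 0.683% of all genes). Together they account for 37 of the lost calls, through their stricter rule. Of 53 calls, 38 held under all the other alternatives. Leaving out 1 array gave 15 to 26 genes higher in oxazolone skin and 19 to 28 in urushiol skin, lowest without control array 1 and highest without control array 3, with 3 lower each time; the share of all genes that rose moved alike, from 3.66% to 15.8% in oxazolone and from 4.40% to 15.1% in urushiol skin. It gave 19 to 30 of the 43 genes with any difference among the groups. For that test the share over all genes was computed in the main fit only (14.1%). With the replicate block 20 and 24 genes were higher (10.2% and 10.8% of all genes) and 3 and 3 lower (1995 and 1852 of all 30142 genes). Under the block 0 differed between the allergens, and 25 differed among the 3 groups. It changed no call other than those of Lce3e, Tchhl1, Crct1, Flg and Lce1d given in the report. On the 6 challenged arrays alone the block called 0 of the 43 genes. The number of arrays limits the precision: the median standard error was 0.52 over the 43 genes and 0.113 over all genes.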

Other observations

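S100a3 and Prr9, genes of the same chromosome 3 complex that are known from hair cuticle and follicle, had an array pattern like that of trichohyalin. S100a3 read 10.77, 14.06 and 12.33 in oxazolone and 10.06, 10.44 and 10.43 in urushiol skin, against 6.25, 6.38 and 11.12 in control skin. Prr9 read 10.29, 13.56 and 11.98 in oxazolone and 10.31, 10.01 and 10.29 in urushiol skin, against 5.71, 5.48 and 10.29 in control skin. In both, control array 3 lay with the challenged arrays and oxazolone array 2 was the highest, and neither gene was called (S100a3: 4.47, adjusted p = 0.0693, and 2.39, adjusted p = 0.291; Prr9: 4.78, adjusted p = 0.0545, and 3.04, adjusted p = 0.177). They were chosen after their values were seen.

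Identical values on several arrays were common in the deposited table. In 69.01% of 30142 genes at least 2 arrays held exactly the gene's median over the 9 arrays, and in 47.46% at least 3 did. Equal values in neighbouring ranks were concentrated in the middle of the order: ranks 4 and 5 were equal in 55.29% of genes and ranks 5 and 6 in 56.17%, against 5.64% for ranks 1 and 2 and 4.73% for ranks 8 and 9. Among the 43 envelope precursors 6 had at least 2 arrays at the median and 3 had at least 3: Crnn at 10.50, Ivl at 13.17 and Sprr3 at 4.65. The part of these ties in the differences was not tested.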
